A study of Mus musculus with 6 samples.

Results

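The 32 genes described here encode enzymes of the citrate cycle, of the pyruvate and malate reactions that feed it, and of glutamine and glutamate metabolism. They were taken by symbol from a named list, which was chosen with earlier results of these data known. All 32 were found among the 19436 genes of the expression table. All 32 also passed the filter on low values, a mean of at least 10 normalized reads in the higher genotype, which 15821 genes passed. RNA was measured in E14.5 fetal liver cells of C57BL/6 mice, sorted for medium CD71 (the transferrin receptor) and absence of Ter119 (a surface marker of later red cells) and labelled erythroid precursors. The 3 wild type libraries (-77+/+ in the design text) carried the Gata2 -77 enhancer, and the 3 -77-/- libraries lacked it on both alleles. Gata2 is a GATA-family regulator of early blood progenitors, and the comparison asks how the transcriptome of sorted precursors differs when this element is missing. The labels give no treatment for either group. The labels do not say whether each library came from its own embryo, so p-values measure the spread between these libraries, and replicate numbers pair no libraries. Where values of 3 libraries are given, they stand in the order of replicates 1, 2 and 3.

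Pyruvate enters the mitochondrial citrate cycle either as acetyl-CoA, through the pyruvate dehydrogenase complex, or as oxaloacetate, through pyruvate carboxylase. Glutamine enters as glutamate and then 2-oxoglutarate, through glutamate dehydrogenase or the transaminases. In developing red cells the cycle also supplies succinyl-CoA, a substrate of the first step of haem synthesis.

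Each library held between 16516338 and 20468899 recovered reads. Normalized read counts are counts divided by a size factor for the library, which ran from 0.878 to 1.17. The labelled cell type was checked against markers. Of 12 erythroid markers 11 were lower in -77-/- libraries by limma at an adjusted p of 0.05, and their summed level ran from 48259 to 52953 normalized reads in wild type and from 3360 to 7972 in -77-/- libraries. All 10 monocyte and macrophage markers were higher, with sums of 1328 to 2483 against 26372 to 36732. Of 10 granulocyte markers 4 were higher and 4 lower (sums 14279 to 24682 against 44736 to 48785), and 7 of 9 tested lymphoid markers were higher (515 to 906 against 1975 to 3690). Mpo alone made up most of the granulocyte sum in both genotypes, with means of 11805 in wild type and 38959 in -77-/- libraries, so that sum mainly follows Mpo. Of 8 megakaryocyte markers 1 was higher and 2 were lower (713 to 1145 against 689.8 to 971), 1 of 8 tested hepatocyte markers was higher (77.8 to 220.5 against 260.3 to 1381), and 2 of 4 tested endothelial and stromal markers were higher (128 to 276 against 556 to 605). Apoa2 and Fgb, both of the hepatocyte list, were at 0 in all wild type libraries, and no marker was at 0 in all -77-/- libraries. Gata2 itself had 92.3 ± 33.3 normalized reads in wild type and 44.9 ± 25.7 in -77-/- libraries (SD, n = 3 here and throughout; log2 fold change -1.10, limma adjusted p = 0.183), Gata1 had 3012 and 244, and Tfrc, which encodes CD71, fell from 14576 ± 2815 to 3307 ± 891. The part of these markers in the differences below was not tested, and in bulk RNA fewer cells of a type and less RNA per cell cannot be told apart.

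Of the 32 enzymes, 16 passed the test, against 32.2% of all genes tested. Among them 4 rose in -77-/- libraries (Idh1, Idh2, Glud1 and Mdh1) and 12 fell (Pcx, Pdk2, Pck2, Pdk1, Idh3a, Dlat, Mdh2, Dld, Suclg2, Pdhb, Dlst and Pdha1). Over all genes 16.9% were called higher and 15.2% lower. The libraries of the genotypes did not overlap for 23 of the 32 members, against 46.5% of all genes tested. The median log2 fold change was -0.15 over the members and 0.10 over all genes. The median size of the change was 0.39 for the members and 0.72 for all genes, while the median standard error was 0.13 and 0.35. A total of 26 of the members had means above 500 normalized reads in both genotypes. Summed over the 32 genes, the enzymes took 0.403%, 0.430% and 0.417% of normalized reads in wild type and 0.427%, 0.412% and 0.442% in -77-/- libraries, so the totals overlapped while their makeup differed. The lowest -77-/- value was that of replicate 2 for 20 of the 32 members, and of replicates 1 and 3 for 6 each. With any single library left out, 4 to 5 members were higher and 8 to 11 lower. A limma fit without the trend and robust steps gave 3 higher and 6 lower, and ended the calls of Dlst, Dld, Suclg2, Mdh1, Mdh2, Pdha1 and Pdhb (limma adjusted p 0.0773 to 0.189). The authors' deposited table called 16 members at an adjusted p under 0.05, and they were the same 16 in the same directions.

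**Figure D1:**
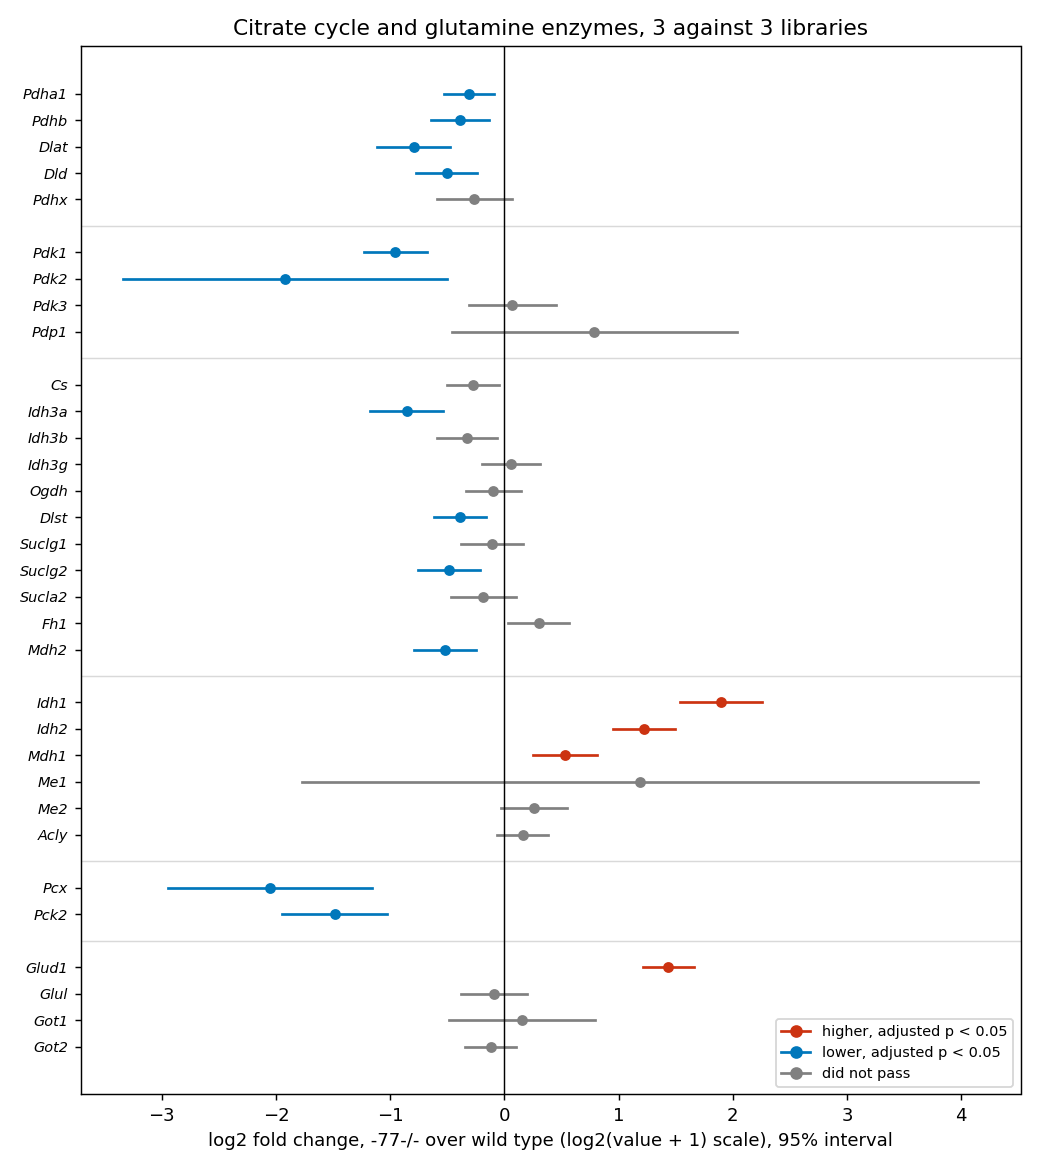
Log2 fold change of each of the 32 enzymes, -77-/- relative to wild type, computed from log2(value + 1), with its 95% limma interval over 3 against 3 libraries, ordered by role from the pyruvate dehydrogenase complex (top) to glutamate and aspartate enzymes (bottom). Red points passed as higher (4), blue as lower (12) and grey points did not pass (16); the widest intervals are those of Me1, Pdk2 and Pdp1, which have low counts.

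The start regions of the members were read from RefSeq windows of the GRCm38.p6 build, 250 bases upstream of the most upstream listed start, which matched 29 of the 32 symbols (Idh3a, Pdp1 and Me2 had no window). The 4 shown are those of Idh1 and Glud1, which had the highest log2 fold changes of the members, and of Pcx and Pck2, which had the lowest among those that stayed past the threshold under every alternative tried. Capitals mark each match, on either strand, to 1 of the 7 motifs named after the sequences. The Idh1 window lies at chr1:65186480-65186729 on the minus strand, that of Glud1 at chr14:34310477-34310726 on the plus strand, that of Pcx at chr19:4510222-4510471 on the plus strand and that of Pck2 at chr14:55540016-55540265 on the plus strand, and each is written 5′ to 3′ on the strand of its gene.
Idh1: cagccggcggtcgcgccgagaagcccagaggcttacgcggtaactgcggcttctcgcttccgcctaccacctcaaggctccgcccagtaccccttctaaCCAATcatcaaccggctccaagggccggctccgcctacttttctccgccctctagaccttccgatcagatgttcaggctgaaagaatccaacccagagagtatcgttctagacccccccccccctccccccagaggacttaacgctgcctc
Glud1: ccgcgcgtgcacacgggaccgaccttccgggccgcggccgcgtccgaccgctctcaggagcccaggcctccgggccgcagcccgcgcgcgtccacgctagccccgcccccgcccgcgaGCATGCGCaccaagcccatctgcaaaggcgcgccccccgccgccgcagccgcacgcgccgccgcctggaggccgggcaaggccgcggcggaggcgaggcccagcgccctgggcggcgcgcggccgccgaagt
Pcx: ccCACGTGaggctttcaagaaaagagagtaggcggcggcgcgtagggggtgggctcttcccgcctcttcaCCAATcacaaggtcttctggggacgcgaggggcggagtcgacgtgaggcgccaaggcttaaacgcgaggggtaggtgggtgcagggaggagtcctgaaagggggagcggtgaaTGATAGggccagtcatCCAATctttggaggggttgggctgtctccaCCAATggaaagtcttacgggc
Pck2: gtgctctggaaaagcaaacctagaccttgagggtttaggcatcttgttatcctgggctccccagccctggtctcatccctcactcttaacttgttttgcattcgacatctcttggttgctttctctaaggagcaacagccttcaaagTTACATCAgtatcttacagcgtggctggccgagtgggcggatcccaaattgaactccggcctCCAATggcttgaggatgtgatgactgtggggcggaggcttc
A GATA site was searched as TGATAA, with A allowed as its first letter and G as its last, on both strands like all motifs here. It was found in 4 of the 29 member windows, those of Dld, Mdh2, Ogdh and Pcx, or 13.8%, against 27.1% of 27025 windows of the same length over all genes. These included 3 of the 11 windows of members that fell and 0 of the 4 of members that rose. The CCAAT box (CCAAT) was in 16 member windows, or 55.2%, against 34.5% of all windows, and the members' windows had a median GC content of 61.6% against 52% for all. An NRF1 site (GCATGCGC) was in the Glud1 window alone among the members (2.31% of all windows), an ERR site (AAGGTCA) in that of Got1 (4.04%), and the PU.1 site searched (GAGGAAGT) in none (2.42%). The E-box (CACGTG) was in the windows of Pcx and Pdk2 (6.04% of all), and an ATF4 element (TGATGNAA) in those of Pck2 and Got1 (3.53%). No motif contains another. A match describes letters in the reference and no binding was measured.

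Both NADP-linked isocitrate dehydrogenases rose in -77-/- libraries, and the catalytic subunit of the NAD-linked enzyme fell. Idh1 makes 2-oxoglutarate and NADPH in the cytosol and peroxisomes, and Idh2 does so in mitochondria. Idh1 (chr1:65158616-65186500 in GRCm38) had 381, 365 and 394 normalized reads in wild type and 1312, 1612 and 1348 in -77-/- libraries. Every -77-/- library lay more than 3 times above every wild type library, and the mean rose 3.75-fold (limma adjusted p = 5.1e-07, with a log2 fold change of 1.90 and an SE of 0.17). Idh2 (chr7:80094846-80115392) had 1644, 1717 and 2162 against 4402, 3949.8 and 4439, without overlap, and rose 2.32-fold (limma adjusted p = 2.9e-06, with a log2 fold change of 1.22 and an SE of 0.13). Levels per kilobase use the longest protein-coding GENCODE transcript of each gene, so comparisons between genes depend on that choice. Per kilobase of exon, Idh2 was the more abundant in both genotypes, at 1055 ± 161 and 2443 ± 156 normalized reads per kb, with Idh1 at 165 ± 6.33 and 618 ± 71.2.

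The NAD-linked enzyme of the cycle is built from the catalytic subunit Idh3a and the subunits Idh3b and Idh3g. Idh3a had 3295, 3286 and 3597 normalized reads in wild type, against 1998, 1449 and 2262 in -77-/- libraries. It fell by 43.9% in the mean (limma adjusted p = 3.9e-04, with a log2 fold change of -0.86 and an SE of 0.15), with -77-/- replicate 2 lowest. Idh3b had a log2 fold change of -0.33 without overlap (limma adjusted p = 0.0566) and passed when -77-/- replicate 1 was left out (0.0344), by edgeR (0.0495), by limma-voom (0.0453) and among genes with a mean of at least 100 (0.0386). Idh3g, whose gene is on the X chromosome, had 0.06 (95% interval -0.19 to 0.31, limma adjusted p = 0.733). The 3 subunits were at 1315, 1366 and 1376 normalized reads per kb in wild type and at 738, 1092 and 1436 in -77-/- libraries, so their levels per length lay close together in wild type and apart in -77-/- libraries. The difference between the subunits' changes was not tested.

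**Figure D2:**
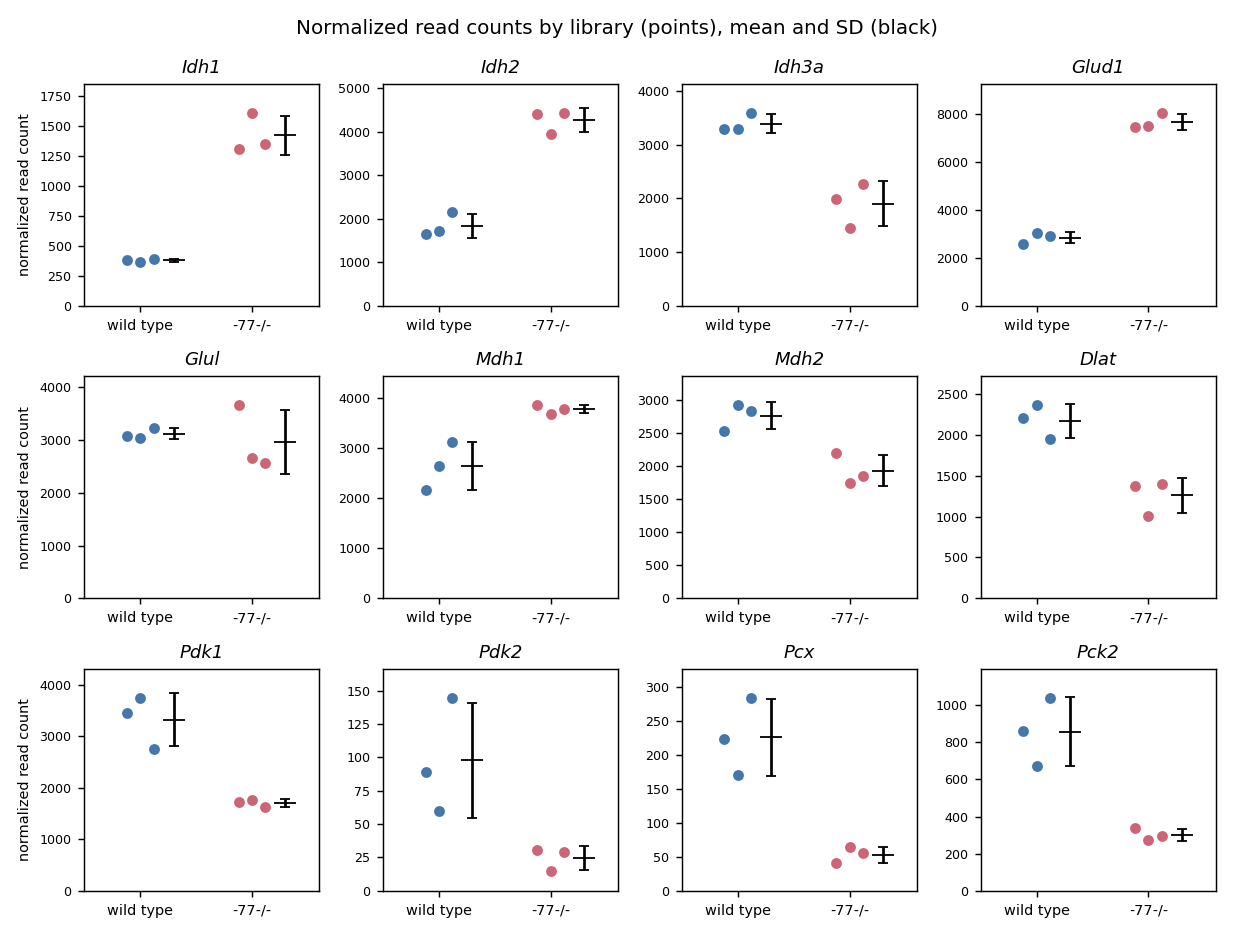
Normalized read counts (linear axis from 0) of 12 enzymes in each of the 3 wild type (blue) and 3 -77-/- libraries (red), with the mean and SD in black. The genotypes do not overlap in 11 of the panels, and only in that of Glul do they share a range (3039 to 3232 against 2560 to 3658).

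All 5 measured genes of the pyruvate dehydrogenase complex, which turns pyruvate into acetyl-CoA, had lower means in -77-/- libraries, and 4 passed. Dlat, the acetyltransferase core, had 2207, 2362 and 1948 normalized reads in wild type and 1371, 1011 and 1399 in -77-/- libraries. Its log2 fold change was -0.80 (SE 0.15, limma adjusted p = 7.7e-04). Dld, the dihydrolipoamide dehydrogenase shared with the 2-oxoglutarate and branched-chain complexes, had 2701, 2972 and 2924 against 2173, 1726 and 2184 (limma adjusted p = 0.00581, with a log2 fold change of -0.51 and an SE of 0.13). Both were clear of the wild type range in every -77-/- library. Pdhb, the beta subunit of the decarboxylase, had 2322, 2499 and 2124 against 1685, 1786 and 1821 (log2 fold change -0.39, limma adjusted p = 0.0212). Pdha1, the alpha subunit and the target of the kinases, had 6118, 7065 and 7223 against 5684, 5082 and 5657 (log2 fold change -0.31, limma adjusted p = 0.0315). Both of these smaller changes lost their call when some single libraries were left out. The call of Pdhb ended without -77-/- replicate 1 (limma adjusted p = 0.0647) or 3 (0.0523) and without wild type replicate 1 (0.0540) or 2 (0.0907). That of Pdha1 ended without -77-/- replicate 1 (limma adjusted p = 0.0549), 2 (0.0883) or 3 (0.0665) and without wild type replicate 2 (0.112) or 3 (0.0869). Pdhx, the component that holds Dld to the core, had a log2 fold change of -0.26 without overlap and did not pass (limma adjusted p = 0.208). Summed over the 5 genes, the complex took 15084 ± 766 normalized reads in wild type and 11301 ± 755 in -77-/- libraries. Pdha1 lies on the X chromosome with Idh3g and Pdk3, and wild type replicate 2 alone had Xist (41877 normalized reads, against 28.5 to 63.2 in the others). Its Pdha1 value lay between those of the other wild type libraries.

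Of the 3 member kinases that phosphorylate Pdha1 and so switch the complex off, 2 fell and 1 did not pass. Over all genes tested, 15.2% were called lower. A further kinase outside the 32, Pdk4, had 12 reads over the wild type and 50 over the -77-/- libraries and did not pass (limma adjusted p = 0.398). Pdk1 (chr2:71873224-71903858), the kinase known for its induction by low oxygen, had 3457, 3747 and 2760.1 normalized reads in wild type and 1732, 1754 and 1618 in -77-/- libraries. It fell by 48.8% in the mean (limma adjusted p = 4.7e-05, with a log2 fold change of -0.95 and an SE of 0.13). Pdk2 had 89.1, 59.9 and 145 against 30.5, 14.6 and 29.0, a low and uneven level without overlap between genotypes (limma adjusted p = 0.0376, with a log2 fold change of -1.92 and an SE of 0.66). Its call ended without -77-/- replicate 2 (limma adjusted p = 0.110) or 3 (0.0649) and without wild type replicate 1 (0.0914) or 3 (0.101), and by limma-voom (0.0603). Pdk3 had 589.7 to 691 in wild type and 579 to 715 in -77-/- libraries (log2 fold change 0.07, 95% interval -0.31 to 0.45, limma adjusted p = 0.798). Per kilobase, Pdk1 led Pdk3 in wild type, at 641 ± 97.8 against 299.8 ± 24.6 normalized reads per kb, while in -77-/- libraries they stood at 328 ± 14.1 and 315 ± 36.1, closer than the spread of Pdk3. Pdk2 was far below both, at 43.6 and 11 normalized reads per kb. Pdp1, the phosphatase that switches the complex back on, ran from 35.3 to 89.8 in wild type and from 64.9 to 219.6 in -77-/- libraries, with overlap (log2 fold change 0.79, 95% interval -0.46 to 2.03, limma adjusted p = 0.326).

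Among the 12 members that form the steps of the cycle from citrate synthase to mitochondrial malate dehydrogenase, Dld counted again, 5 fell, 0 rose and 7 did not pass. Their median log2 fold change was -0.30, and their sum was 39399 ± 1290 normalized reads in wild type and 32337 ± 2772 in -77-/- libraries. The share called was 41.7%, against 32.2% of all genes tested. Mdh2, which makes oxaloacetate in the last step, had 2528, 2918 and 2827 in wild type and 2197, 1737 and 1854 in -77-/- libraries (limma adjusted p = 0.00508, with a log2 fold change of -0.52 and an SE of 0.13). Suclg2, the GTP-forming subunit of succinate-CoA ligase, had 2311, 2663 and 2628 against 1591, 1822 and 2023 (log2 fold change -0.49, limma adjusted p = 0.00851). Neither overlapped between genotypes. The ADP-linked partner subunit Sucla2 had -0.19 (limma adjusted p = 0.312) and the shared subunit Suclg1 -0.11 (0.550).

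Dlst, the succinyltransferase core of the 2-oxoglutarate dehydrogenase complex, had 5195, 5940 and 4967 normalized reads in wild type and 4409.8, 3872 and 4010.1 in -77-/- libraries (limma adjusted p = 0.0121, with a log2 fold change of -0.39 and an SE of 0.11). Its call ended without -77-/- replicate 3 (limma adjusted p = 0.0515) or wild type replicate 2 (0.0730). Ogdh, the first enzyme of the same complex, had -0.10 with overlap (95% interval -0.34 to 0.14, limma adjusted p = 0.536). Cs, citrate synthase, had 8613, 9265 and 7786 against 7168, 6300.5 and 7747, close to touching at wild type replicate 3 and -77-/- replicate 3. Its log2 fold change was -0.28 (95% interval -0.50 to -0.05, limma adjusted p = 0.0608), and it passed without wild type replicate 3 (0.0329), by DESeq2 (0.0466) and by limma-voom (0.0449). Fh1, fumarase, had 0.30 without overlap (95% interval 0.03 to 0.57, limma adjusted p = 0.0818) and passed as higher without -77-/- replicate 2 (0.0353). Per kilobase, Cs was the highest of the members in wild type, at 2923.5 ± 253 normalized reads per kb. In -77-/- libraries it had 2417 ± 249, within its spread of the Idh2 level given above.

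The 6 members grouped as NADP-linked and cytosolic partner enzymes, Me2 included, all had positive log2 fold changes. Their median was 0.86, against 0.10 over all genes. Of the 6, 3 passed (Idh1, Idh2 and Mdh1), while 32.2% of all genes tested were called. The 95% intervals of Acly, Me2 and Me1 included 0, so the direction of these genes was not settled. The sum of the 6 ran from 9124 to 10396 normalized reads in wild type and from 14489.9 to 15459 in -77-/- libraries. Mdh1, the cytosolic malate dehydrogenase of the malate-aspartate shuttle, had 2161, 2643 and 3130.4 in wild type and 3863, 3692 and 3795 in -77-/- libraries. The wild type libraries were spread and the -77-/- libraries close together and above them (limma adjusted p = 0.00553, with a log2 fold change of 0.53 and an SE of 0.13). Acly, which splits exported citrate into acetyl-CoA and oxaloacetate, had 0.16 without overlap (95% interval -0.06 to 0.38, limma adjusted p = 0.269). Me2, a mitochondrial NAD-linked malic enzyme grouped here beside Me1, had 0.26 (95% interval -0.03 to 0.55, limma adjusted p = 0.159). Me1, its cytosolic NADP-linked relative, had 68 reads over all 6 libraries and between 1.14 and 35.9 normalized reads, so its log2 fold change of 1.19 had a 95% interval of -1.77 to 4.14 (limma adjusted p = 0.544).

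Pcx and Pck2, which make and use oxaloacetate beside the cycle, both fell. Other members also make or use it there: Mdh1 rose, and Acly, Got1 and Got2 did not pass. Pcx (chr19:4510472-4621752), pyruvate carboxylase, had 223, 171 and 285 normalized reads in wild type and 40.7, 64.2 and 55.5 in -77-/- libraries. The lowest wild type library was above the highest -77-/- library by more than 100 normalized reads, and the mean fell by 76.4% (limma adjusted p = 0.00144, with a log2 fold change of -2.05 and an SE of 0.42). This was the lowest log2 fold change of the 32 members. Pck2 (chr14:55540266-55551242), the mitochondrial phosphoenolpyruvate carboxykinase, had 860.3, 672.5 and 1040.4 against 337, 275 and 293. Its mean fell by 64.8% (limma adjusted p = 7.3e-05, with a log2 fold change of -1.49 and an SE of 0.21). The gene of the cytosolic isozyme, Pck1, was searched for by symbol and not found among the genes read from the expression table.

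Among the 4 enzymes that handle glutamine, glutamate and aspartate, 1 passed (25.0%, against 32.2% of all genes tested). Glud1 (chr14:34310727-34345265), glutamate dehydrogenase, had 2594, 3025 and 2910.5 normalized reads in wild type and 7487, 7500.1 and 8066 in -77-/- libraries. It rose 2.70-fold (limma adjusted p = 6.9e-08, with a log2 fold change of 1.44 and an SE of 0.10), with the smallest adjusted p of the 32 members. Glul, glutamine synthetase, which runs from glutamate to glutamine, had 3078, 3039 and 3232 against 3658, 2664 and 2560.4. The -77-/- libraries lay on both sides of the wild type range, and the log2 fold change of -0.09 (95% interval -0.38 to 0.20, limma adjusted p = 0.631) became 0.003 without -77-/- replicate 3. Got1, the cytosolic aspartate transaminase, ran from 376 to 624 in wild type and from 345 to 744 in -77-/- libraries, with a log2 fold change of 0.16 (limma adjusted p = 0.721). Its sign turned to -0.05 without -77-/- replicate 3 and to -0.05 without wild type replicate 2. Got2, the mitochondrial transaminase, had -0.12 without overlap (95% interval -0.34 to 0.10, limma adjusted p = 0.394). Pseudogenes named for Glud1 and Got2 exist in the GENCODE annotation, and how reads shared with such copies were counted is not given in the sources used here, nor is a strand setting.

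Of the 16 members that did not pass, 7 had genotypes that did not overlap (Cs, Idh3b, Sucla2, Fh1, Pdhx, Got2 and Acly). Over all genes tested, called or not, the genotypes did not overlap for 46.5%. This share includes called genes, so it is not a matched comparison, and the share among genes that did not pass was not computed. The 95% interval of the log2 fold change lay within 0.6 on either side of 0 for 13 of the 16. Pdp1, Me1 and Got1 had wider intervals, so differences beyond 0.6 in size were not excluded for them.

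Partner enzymes were also compared as a log2 ratio within each library, which removes the library's scaling. The size of a ratio between genes depends on gene length, so only its difference between genotypes is read. The log2 levels printed, their signs included, do not say which of 2 genes was the more abundant. For 7 of 11 pairs the libraries of the genotypes did not overlap, each with an exact two-sided permutation p of 0.1, the smallest that 3 against 3 libraries allow, and a Benjamini-Hochberg value of 0.157 over the 11 pairs, so no pair could pass 0.05. Several of these ratios restate genes already described. The Idh3a/Idh2 ratio, the NAD-linked over the mitochondrial NADP-linked enzyme, was 4.22-fold lower in -77-/- libraries (log2 0.89 ± 0.14 to -1.19 ± 0.24). The cytosolic over mitochondrial malate dehydrogenase ratio, Mdh1/Mdh2, was 2.07-fold higher (log2 -0.07 ± 0.20 to 0.98 ± 0.14). The Glul/Glud1 ratio was 2.89-fold lower (log2 0.13 ± 0.12 to -1.39 ± 0.32), with every -77-/- library below -1.03 and every wild type library above 0. The ratio of carboxylase to dehydrogenase for pyruvate, Pcx/Pdha1, was 3.35-fold lower, since Pcx fell more than Pdha1.

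Idh1/Idh2 was 1.6-fold higher (log2 difference 0.68), Pdk3/Pdk2 was 3.97-fold higher and Pdk1/Pdp1 was 3.35-fold lower. For the last, -77-/- replicate 1 lay apart at 2.97 with the others at 4.51 and 4.62, and the log2 difference of -1.74 was -1.21 without it. The other 4 pairs overlapped. Their log2 differences were 0.28 for Got1/Got2 (exact permutation p = 0.6), 0.93 for Me1/Me2 (exact permutation p = 0.4), -0.30 for Suclg2/Sucla2 and 0.97 for Pdk1/Pdk2 (exact permutation p = 0.3 for both).

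**Figure D3:**
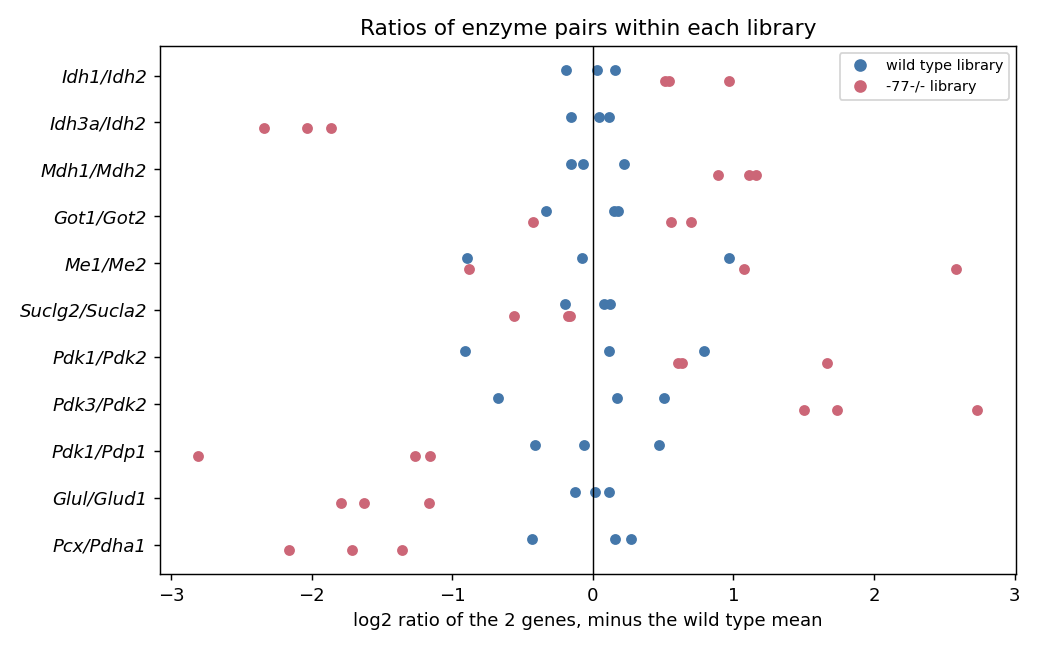
Log2 ratio of 11 enzyme pairs in each library, shifted so that the wild type mean of each pair is 0, with wild type libraries in blue and -77-/- libraries in red. Idh3a/Idh2, Mdh1/Mdh2 and Glul/Glud1 have tight groups that stand apart (differences of -2.08, 1.05 and -1.53), while Got1/Got2 and Me1/Me2 overlap.

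Of other genes of the cycle and of pyruvate oxidation, 21 of 23 listed were in the table and 20 were tested. Among these 1 rose, 5 fell and 14 did not pass, with a median log2 fold change of -0.27. The share called was 30.0%, against 32.2% of all genes tested. Without -77-/- replicate 3 there were 0 higher and 3 lower, and without the trend and robust steps 2 lower. Lias, the lipoic acid synthase whose product is the cofactor carried by Dlat and Dlst, had 1106, 1295 and 1715 normalized reads in wild type and 655, 784 and 609 in -77-/- libraries (log2 fold change -0.99, limma adjusted p = 6.3e-04). Sdhd, a membrane anchor of succinate dehydrogenase, had a log2 fold change of -0.65 (limma adjusted p = 6.7e-04). Pdp2, the second phosphatase of the pyruvate dehydrogenase complex, rose by 0.80 on the log2 scale (limma adjusted p = 0.0130), a call that ended without -77-/- replicate 1 (0.0576) or 3 (0.0520). Aco1, the cytosolic aconitase that doubles as an iron sensor, had -0.59 (limma adjusted p = 0.0123), which ended without -77-/- replicate 3 (0.0607).

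Of other genes that handle glutamine and amino groups, 20 were tested. Among these 2 rose, 11 fell and 7 did not pass, with a median log2 fold change of -0.65. The share called was 65.0%, against 32.2% of all genes tested. Without the trend and robust steps 1 was higher and 7 were lower. Asns, asparagine synthetase, which uses the amide of glutamine, had 6389, 6052 and 7867 normalized reads in wild type and 1335, 666 and 990.4 in -77-/- libraries (log2 fold change -2.81, limma adjusted p = 4.7e-05). Aldh18a1, which starts proline synthesis from glutamate, had -1.44 (limma adjusted p = 1.9e-05). Nags, which makes N-acetylglutamate, was at 82.8 to 88.9 in wild type and at 17.3, 0 and 0 in -77-/- libraries (log2 fold change -5.05, limma adjusted p = 0.00551, and 0.0567 by edgeR). Ctps2, a CTP synthase, had 310.5, 267 and 239 against 915, 1481 and 1239.7 and rose (log2 fold change 2.13, limma adjusted p = 2.0e-06), while its paralog Ctps was among the genes that fell, at -0.80. Bcat1, the cytosolic branched-chain transaminase, had 36.6, 32.9 and 0 against 252, 153 and 291 (log2 fold change 4.37, limma adjusted p = 0.0376). That call ended without -77-/- replicate 1 (limma adjusted p = 0.0704), 2 (0.0587) or 3 (0.0655), by edgeR (0.0520), with no filter on low values (0.0623), with a pseudocount of 0.1 (0.140) and without the trend and robust steps (0.102).

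A reference list of 18 other mitochondrial genes (channels, import, chaperones, proteases, fusion, transcription) had 0 higher and 16 lower in -77-/- libraries, with a median log2 fold change of -0.55. The share called was 88.9%, against 32.2% of all genes tested. Without the trend and robust steps of limma, 5 were lower. The largest changes were those of Mfn1 (-1.20) and Phb (-1.17), followed by Hspd1 (-0.91), Tfam (-0.88) and Tomm20 (-0.77). The sum of the list was 122060.0 ± 5620 normalized reads in wild type and 78370.2 ± 8707 in -77-/- libraries, a ratio of 0.642, against 0.749 for the pyruvate dehydrogenase complex and 0.821 for the cycle steps. Idh2 and Glud1, whose products are also mitochondrial, rose in the same libraries. Whether the falls of cycle genes and of this list share a cause was not tested.

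**Figure D4:**
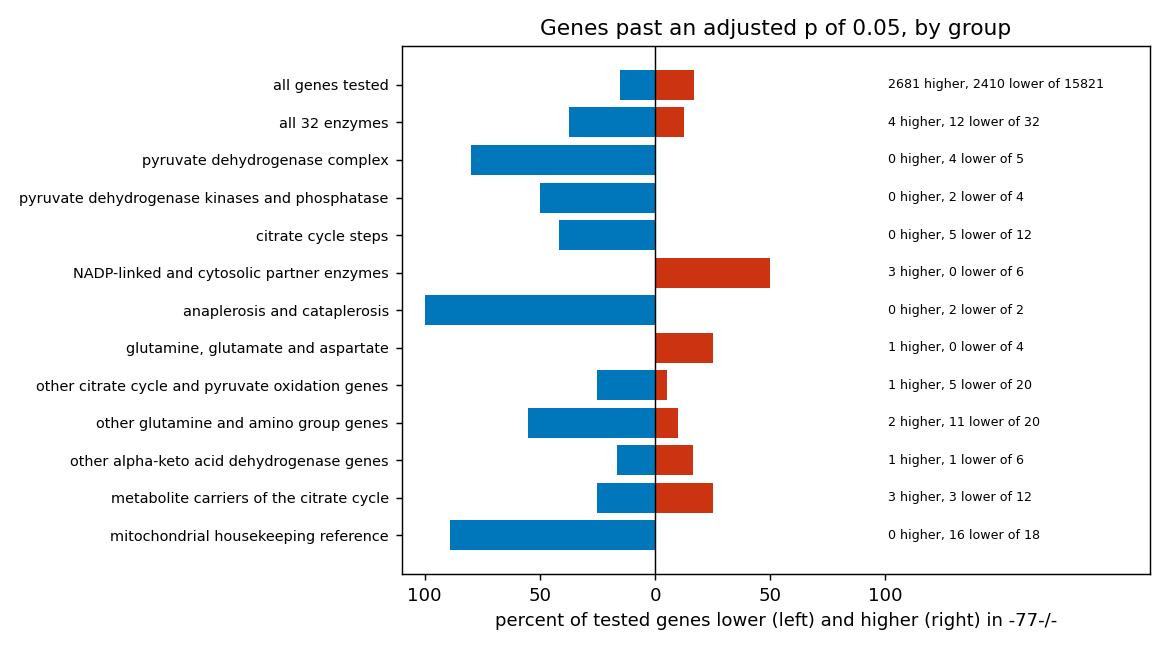
Percent of tested genes called lower (blue, left) and higher (red, right) in -77-/- libraries, for all genes, for the 32 enzymes and their role groups, and for the other lists, with the counts at the right. All genes show 16.9% higher and 15.2% lower, while the mitochondrial reference list has 16 of 18 lower and the pyruvate dehydrogenase complex 4 of 5.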

How the data were processed

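The members and lists were chosen with earlier results of these data known. RNA from sorted cells (10 ng of total RNA, NuGEN kit, single reads of 50 nt, per the labels' protocols) was processed, per the submitters' processing notes, with STAR 2.5, RSEM 1.2.31, Bowtie and DESeq2 on mm9. For annotation and strand setting, nothing was given in the sources used here. The deposited signal values are gene counts that the authors divided by a size factor per library: in each library 100% of values were whole multiples of a single step (tolerance 0.01 read). The deposited log2 fold changes and adjusted p-values are the authors' DESeq2 output and were used for comparison only. In 8 of 19444 rows the cells were shifted, and these were left out.

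The test was limma 3.58.1 (R 4.3.3; trend, robust empirical Bayes) on log2(value + 1), genes with a mean of at least 10 in the higher genotype, Benjamini-Hochberg over all 15821 genes, threshold 0.05, 3 against 3 libraries, no covariates. The added 1 shrinks ratios of low values, but a difference between means of logs can also exceed the log of the ratio of means where libraries are uneven. edgeR was planned had the table held raw counts. On recovered reads edgeR 4.0.16 called 17 members (2382 genes higher and 2353 lower over all), DESeq2 1.42.0 also called 17, and limma-voom was run likewise. A count of 3 reads equals 2.56 to 3.42 normalized reads, and counting limits cover counting error only. Lengths (longest protein-coding transcript) and gene spans come from GENCODE M21 (GRCm38), not mm9.

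Named genes: every member is accounted for, with values per library for those past the threshold, and of each other list the 5 largest changes past it are named. Pdk3, Glul, Got1 and Cs values, Ctps, Pdk4 and Xist were added after the values were seen. Some named results of the other lists are not reported here.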

Additional observations from a re-analysis of the deposited data

How the results depend on the processing

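Members were refitted under 15 alternatives, 9 on all libraries and 6 leaving out a library, except that Me1 failed the low-value filter in 2 of them and Pdk2 in 1. Of 477 values, 443 kept direction and side of the threshold, 23 lost a call, 8 gained one and 3 turned sign. Idh1, Idh2, Idh3a, Dlat, Pdk1, Pcx, Glud1 and Pck2 kept their call in all of them. Without the trend and robust steps, 6 members were lower (12 before), 1430 of all genes were lower (2410 before), and of the other pathway lists together 3 genes were higher and 16 lower (7 and 36 before). That setting ended the calls of Dlst, Dld, Suclg2, Mdh1, Mdh2, Pdha1 and Pdhb (limma adjusted p 0.0773 to 0.189). limma-voom ended that of Pdk2 (0.0603). With single libraries left out there were 4 to 5 members higher and 8 to 11 lower, 1984 to 2775 of all genes higher and 1912 to 2333 lower, and in the other lists together 2 to 7 higher and 30 to 36 lower. The signs that turned were those of Glul and Got1, neither called: leaving out a library gave Glul -0.2544 to 0.0029, positive without -77-/- replicate 3, and Got1 -0.0539 to 0.5035, negative without wild type replicate 2 and, at -0.0492, without -77-/- replicate 3. Scaling by TMM left the median log2 fold change of all genes at 0.09. No paired analysis was possible because the labels carry no replicate numbers: 1 to 3 follow the order of the sample records and tie no libraries together. With 3 libraries a genotype, exact permutation tests of single values cannot fall below 0.1.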

Other observations

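The carriers that move citrate cycle metabolites across the mitochondrial and plasma membranes divided by gene. Of 12 tested, 3 rose, 3 fell and 6 did not pass. Over all genes tested, 32.2% were called, 16.9% as higher and 15.2% as lower. The sum of the 12 carriers was 20480 ± 939 normalized reads in wild type and 20337 ± 1264 in -77-/- libraries. Slc25a21, the mitochondrial carrier of 2-oxoadipate and 2-oxoglutarate, had 890.3, 774 and 500.3 normalized reads in wild type and 16.3, 4.86 and 4.27 in -77-/- libraries (log2 fold change -6.44, limma adjusted p = 5.6e-07). Slc25a12, the aspartate-glutamate carrier of the malate-aspartate shuttle that Mdh1 also serves, rose from 906 ± 238 to 2249 ± 118 (log2 fold change 1.34, limma adjusted p = 2.5e-05). Slc16a1, a plasma membrane carrier of lactate and pyruvate, had -0.85 and Slc25a1, the citrate carrier, -0.76. Slc25a11, the 2-oxoglutarate-malate carrier, rose by 0.45 on the log2 scale, a call that ended without -77-/- replicate 2 (limma adjusted p = 0.0623) or 3 (0.0744) and without wild type replicate 1 (0.0608). Without -77-/- replicate 3, without wild type replicate 1, or without the trend and robust steps, 1 carrier was higher, and the last also ended the calls of Slc25a11 (0.0807) and Slc25a1 (0.0531).

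Of 6 tested genes of the sister complexes that share Dld, 1 passed as higher and 1 as lower. The share called was 33.3%, against 32.2% of all genes tested. Dbt, the core of the branched-chain complex, had a log2 fold change of 0.70 (limma adjusted p = 0.0414). That call ended without -77-/- replicate 1 (limma adjusted p = 0.0753), 2 (0.0804) or 3 (0.164) and without wild type replicate 1 (0.0607) or 3 (0.1). On all libraries it ended by DESeq2 (0.0603), by edgeR (0.0557) and without the trend and robust steps of limma (0.0932). Gcsh, the lipoyl carrier of glycine cleavage, had -0.52 (limma adjusted p = 0.0308). That call ended without -77-/- replicate 2 (limma adjusted p = 0.151) or 3 (0.0617) and without wild type replicate 1 (0.0638), 2 (0.0787) or 3 (0.0543), and without the trend and robust steps (0.118).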
